A study of Homo sapiens with 60 samples.

Results

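VIM, ZEB1, ZEB2, FN1, CDH2 and SNAI2 are genes of the mesenchymal cell state, and the chromatin of these 6 loci was described in PC9 cells, a human lung adenocarcinoma line driven by mutant EGFR. Members were chosen by name, and their peaks were taken as every deposited peak that overlapped a gene or the 25 kb on either side of it, whatever its reproducibility. This gave 115 of the 507516 peaks in 24 lists. The data came from CUT&RUN, in which an antibody-tethered nuclease releases the DNA around a bound protein for sequencing. The 3 genotypes were parental PC9 (WT), METTL7A knockout PC9 (KO), and KO cells overexpressing METTL7A with MYC-tag and FLAG tags (Rescue). METTL7A encodes a methyltransferase-like protein, and Rescue cells are still knockout at the native gene. Cells of each genotype were untreated or were kept on osimertinib, an inhibitor of mutant EGFR, with the dose raised from 100 nM for 6 to 8 weeks. The labels used here do not say whether the KO line was 1 clone. Antibodies against H3K27Ac, RAD21, PDS5A and an IgG control were read here, each on 2 replicates per condition, which the authors joined into 1 list. No list therefore has a replicate of its own, and no source says that the 2 replicates came from separate cultures.

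On GRCh37 the genes lie at chr8:49830236-49833988 (SNAI2), chr10:31607424-31818742 (ZEB1), chr2:145141942-145277958 (ZEB2), chr10:17270258-17279592 (VIM), chr18:25530930-25757445 (CDH2) and chr2:216225163-216300895 (FN1). VIM and ZEB1 lie on the plus strand and the other genes on the minus strand. Distances below are counted from the gene start, with positive values running into the gene. No GRCh37 annotation was used here, so a peak is placed only by that distance, and exons, introns and UTRs are not given. For the same reason the epithelial and lung markers that would check the cell type were not analysed here, and reads from these loci say nothing of RNA level.

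In epithelial-mesenchymal transition a carcinoma cell loses cell-cell junctions and gains motility. SNAI2, ZEB1 and ZEB2 encode zinc-finger repressors that bind E-boxes in epithelial genes such as CDH1. VIM (vimentin, an intermediate filament), CDH2 (N-cadherin, an adhesion molecule) and FN1 (fibronectin, an extracellular matrix protein) are structural products of the mesenchymal state, and this state is one known route of resistance to EGFR inhibitors. H3K27Ac is an acetyl mark found on active promoters and enhancers. RAD21 is the kleisin subunit of cohesin, the ring that holds sister chromatids and extrudes DNA loops. PDS5A is a cohesin-bound regulator that works with the loading and release machinery.

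The loci fell into sets of 3 by where their reproducible peaks lay. Reproducibility was read from the irreproducible discovery rate (IDR). It scores how high a peak ranks in both replicates and how well those ranks agree. A peak was counted as at the limit when the deposited −log10 of its global IDR was 1.301 or more, an IDR of 0.05. A weak peak over the limit can thus have replicates that agree. At FN1, CDH2 and ZEB2, 10 of 10 peaks at the limit came from osimertinib-treated WT cells, as did 25 of 39 deposited peaks (64.1%). At VIM, ZEB1 and SNAI2, peaks were shared across conditions: 7 of 30 at the limit (23.3%) and 15 of 70 deposited (21.4%) came from treated WT cells. Over all peaks of the same 18 lists, treated WT cells held 25.9% of those at the limit and 23.8% of those deposited. Most peaks at the limit in the first set lay near it. Only RAD21 at ZEB2 (0.00164) and at FN1 (0.00349 and 0.00991) had an IDR of 0.01 or less, and the rest had 0.0193 to 0.0461. The second set also held peaks between the 2 limits, up to 0.0475. IgG peaks lay in the second set: 6 of 6 were at VIM and ZEB1, and 0 at FN1, CDH2, ZEB2 and SNAI2. The sets were formed after these values were seen, so the split is a description without a test.

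**Figure D1:**
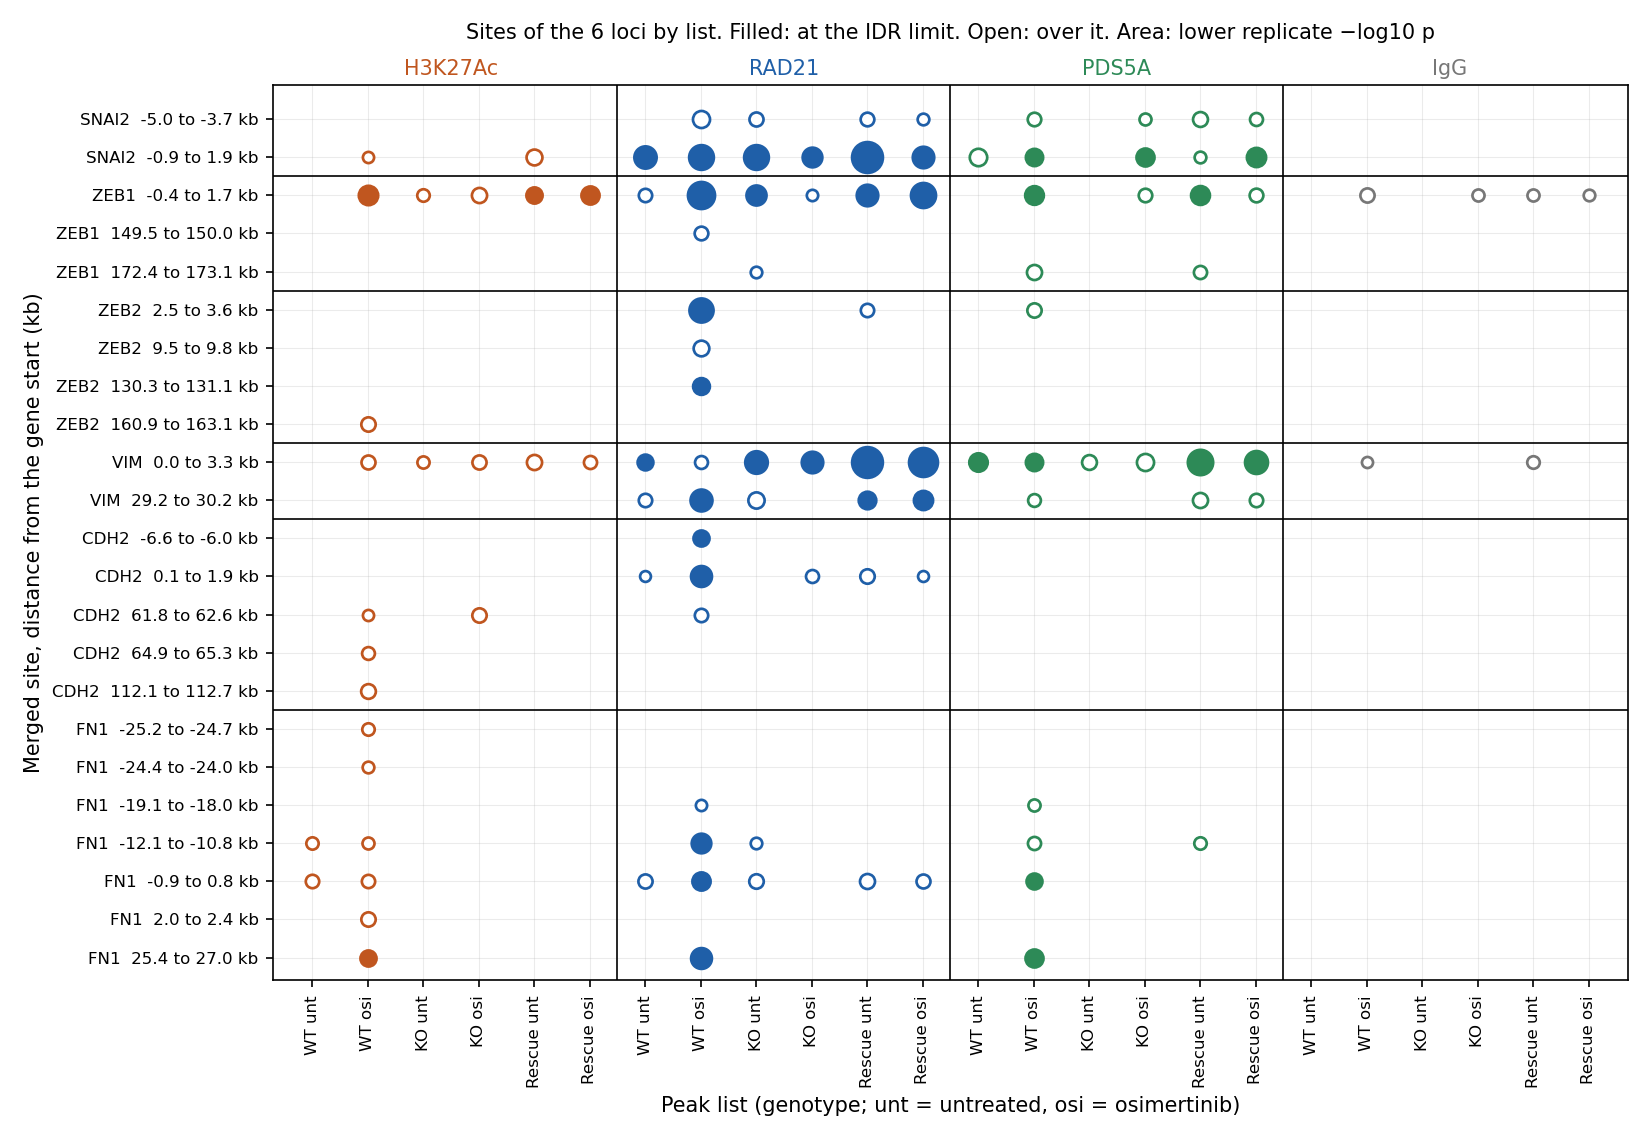
Each row is 1 of 23 merged sites (peaks overlapping by 1 bp or more), by distance from the gene start in kb, and each column is 1 peak list. Filled points mark peaks at the IDR limit, open points peaks over it, and point area grows with the lower replicate −log10 p; the WT osi columns hold a point at each of the 23 sites, and 12 sites have points there alone.

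Merging the 109 peaks of H3K27Ac, RAD21 and PDS5A gave 23 sites. RAD21 was found at 17, PDS5A at 11 and H3K27Ac at 13, each pooled over conditions. Each of the 11 PDS5A sites also held RAD21 in some condition, and the share over all merged sites was not computed. At ZEB1, 172.4 to 173.1 kb from the start, RAD21 was listed in untreated KO cells, PDS5A in treated WT and untreated Rescue cells. Treated WT cells had a deposited peak of some antibody at 23 of 23 sites. When all peaks of the 18 lists were merged in the same way, they had one at 67.3% of 87539 sites. For 12 of the 23 that was the only condition with a peak in the window: 5 at FN1, 3 at CDH2, 3 at ZEB2 and 1 at ZEB1. At 1 of the ZEB2 sites a treated Rescue H3K27Ac peak just beyond the window overlaps the treated WT peak. That leaves 11 of 23 (47.8%), against 18.4% of all merged sites. The comparison is a description without a test, since such a background was computed for treated WT cells alone. The sites of 1 gene are not independent, and the treated WT lists were the longest or next to longest of their antibody. None of those 12 was at VIM or SNAI2, whose windows were the shortest (59.3 and 53.8 kb, against 125.7 to 276.5 kb). Of the 12, 3 held a peak at the limit. At the other end, 3 sites carried RAD21 in all 6 conditions: the starts of SNAI2 and ZEB1 and the first 3.3 kb of VIM. The ZEB1 and VIM sites also held deposited IgG peaks. How large a share of all merged sites carried RAD21 in all 6 conditions was not computed.

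The lists also differed in length. Treated WT cells had the longest RAD21 and PDS5A lists, with 38829 and 34781 deposited peaks, and the longest IgG list, with 7612. For H3K27Ac, treated Rescue cells had the longest list (45234) and treated WT cells the next (44124). The deposited lists hold no read totals, so depth per library is unknown, and −log10 p values of different lists are compared here only through their rank within a list.

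SNAI2 carried RAD21 at its start in every condition. A RAD21 peak lay across the start in 6 of 6 lists and was at the limit in 6 of 6. Its replicate −log10 p values were 56.4 and 22.7 in untreated WT cells and 41.0 and 28.6 in treated WT cells. In KO cells they were 28.5 and 33.1 untreated and 17.1 and 20.8 treated, and in Rescue cells 46.0 and 51.1 untreated and 57.2 and 20.8 treated. By the lower value this peak ranked between percentile 81.3 (treated Rescue) and percentile 96.5 (untreated WT) of its list. The untreated lists ranked it at percentile 96.5 (WT), 96.4 (Rescue) and 95 (KO), above the treated lists at 88.8 (KO), 88.2 (WT) and 81.3 (Rescue). By the first replicate column alone the order was not kept: treated Rescue cells ranked it at 91.2 and untreated Rescue cells at 87.8. These percentiles describe 6 lists of unequal length.

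PDS5A accompanied RAD21 at the SNAI2 start in 5 of 6 lists, and the peak was at the limit in 3. The values were 22 and 12.6 in treated WT, 13.9 and 18 in treated KO and 27.3 and 16.2 in treated Rescue cells, all 3 at the limit. In untreated WT cells they were 12.9 and 16.8, with an IDR of 0.0866, and in untreated Rescue cells 30.1 and 4.35. The untreated KO list held no PDS5A peak in the SNAI2 window. That list is the shortest of the 6, with 9232 deposited peaks. H3K27Ac was deposited at this start in untreated Rescue cells (10.2 and 13.1) and treated WT cells (3.74 and 5.43), and at the limit in neither. A second site 3.7 to 5.0 kb upstream of SNAI2 held RAD21 in 4 lists and PDS5A in 4, with 0 at the limit.

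ZEB1 was the gene with reproducible acetylation at its start. H3K27Ac lay across the start in 5 of 6 lists and was at the limit in 3: treated WT (16.5 and 18.8), untreated Rescue (14.9 and 10.8) and treated Rescue (14.1 and 19.5). In KO cells the values were 6.89 and 5.34 untreated and 9.07 and 12.1 treated, both over the limit, and the untreated WT list held no such peak. These 3 are 3 of the 4 H3K27Ac peaks at the limit over all 6 loci. Among the IDR values closest to the limit, the ZEB1 peak of untreated Rescue cells had 0.0475, just inside, and the H3K27Ac peak at the SNAI2 start in the same cells 0.0638, just outside.

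RAD21 lay across the ZEB1 start in 6 lists and was at the limit in 4. The pairs of values were 39.1 and 6.45 in untreated WT (over the limit), 52.5 and 34.8 in treated WT, 21.5 and 17.9 in untreated KO, 3.93 and 15.3 in treated KO (over the limit), 46.0 and 21.0 in untreated Rescue and 45.5 and 29.4 in treated Rescue cells. Both lists over the limit had replicates that differed widely. PDS5A was deposited there in 4 lists, at the limit in treated WT (30.6 and 15.1) and untreated Rescue cells (18.3 and 15.5). IgG was deposited at the ZEB1 start in 4 of 6 lists, with lower values of 4.21 to 7.65 and none at the limit. IgG was listed there in treated WT (10.8 and 7.65), treated KO, untreated Rescue and treated Rescue cells, and its part in the peaks at this start was not tested. Within ZEB1, RAD21 or PDS5A was deposited at 2 sites more than 149 kb from the start, with 0 peaks at the limit.

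ZEB2 had no deposited peak of any antibody within 1 kb of its start in any of the 24 lists. Its 6 peaks lay at 4 sites, and 5 of the 6 came from treated WT cells. One was RAD21 at chr2:145274330-145275429, 2.5 to 3.6 kb into the gene, with 47.5 and 27 in treated WT cells (at the limit, percentile 86.9 of its list) and 6.47 and 10.4 in untreated Rescue cells (over it). PDS5A was deposited at the same site in treated WT cells (9.36 and 7.80, over the limit). A second RAD21 peak at the limit lay 130.3 to 131.1 kb into the gene in treated WT cells (28.6 and 11.7), and the other 5 RAD21 lists held none there. H3K27Ac appeared once, over the limit, downstream of the gene.

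VIM carried cohesin close to its start in every condition. RAD21 was found in the first 3.3 kb in 6 of 6 lists and was at the limit in 5. The strongest peak of each of those lists had 27.9 and 10.1 in untreated WT, 23.3 and 38.1 in untreated KO, 20.9 and 31.2 in treated KO, 52.2 and 45.6 in untreated Rescue and 42.3 and 40.1 in treated Rescue cells. The exception was treated WT cells, where 1 broad peak of 3264 bp had 84.3 in one replicate and 5.87 in the other. That 14.4-fold gap was the widest between replicates among the 109 peaks.

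PDS5A was found in the same VIM interval in 6 of 6 lists and was at the limit in 4. Those 4 were untreated WT (14.7 and 22.4), treated WT (35.1 and 12.6), untreated Rescue (33.6 and 30.1) and treated Rescue (33.0 and 24.2). The KO values were 8.56 and 11.3 untreated and 12.3 and 14.0 treated, both over the limit. H3K27Ac was deposited at VIM in 5 of 6 lists and at the limit in 0, with lower values of 4.94 to 9.07. IgG was deposited on this interval in treated WT (8.40 and 3.62) and untreated Rescue cells (5.85 and 5.40), and its part there was not tested.

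A second VIM site lay beyond the 3′ end of the gene, 29.2 to 30.2 kb from the start, at chr10:17299464-17300464. It held RAD21 in 5 lists and no IgG peak. RAD21 was at the limit in treated WT (59.4 and 21.9), untreated Rescue (29.3 and 13.1) and treated Rescue cells (28.4 and 16.1). It was over the limit in untreated WT (28.9 and 6.54) and untreated KO cells (10.8 and 17.9). The treated KO list had no RAD21 peak there. PDS5A was deposited at the site in 3 lists, treated WT and both Rescue lists, with 0 at the limit.

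CDH2 held RAD21 near its start and no PDS5A peak in any list. RAD21 lay 0.1 to 1.9 kb into the gene in 5 lists and was at the limit in treated WT cells alone, where both replicates were close (21.4 and 19.7). The other values were 7.26 and 3.31 in untreated WT, 5.96 and 7.52 in treated KO, 14.1 and 8.01 in untreated Rescue and 13.3 and 3.41 in treated Rescue cells. The other 4 lists held the peak over the limit. Upstream, at chr18:25763405-25764053, treated WT cells had a RAD21 peak at the limit (21.4 and 10.4), which no other list held. H3K27Ac was deposited at 3 sites more than 61 kb into CDH2, with 0 at the limit.

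FN1 had more sites listed in treated WT cells alone than any other of the 6 genes, 5 of its 7. That condition held 14 of the 22 peaks and 6 of the 6 at the limit. Untreated WT cells held 3, untreated KO 2, treated KO 0, untreated Rescue 2 and treated Rescue 1. The treated KO lists of H3K27Ac, RAD21, PDS5A and IgG, with 39192, 17687, 18352 and 2703 deposited peaks, thus had none within 25 kb of FN1.

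Inside FN1, all 3 antibodies met at chr2:216273849-216275540, 25.4 to 27 kb from the start. In treated WT cells RAD21 had replicate values of 61.4 and 19.5 (percentile 77.5 of its list), PDS5A 18 and 13.9 (percentile 69.9) and H3K27Ac 10.6 and 17.4 (percentile 73.1). All 3 peaks were at the limit. The other 5 conditions held no deposited peak of any antibody at this site, and IgG held none in any condition.

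RAD21 lay across the FN1 start in 5 lists and was at the limit in treated WT cells (34.7 and 14.3). It was over the limit in untreated WT (17.4 and 7.61), untreated KO (8.10 and 9.83), untreated Rescue (14.1 and 8.85) and treated Rescue cells (17.1 and 7.28), and treated KO cells had none. PDS5A was deposited at the FN1 start in treated WT cells alone (23.4 and 10.3, at the limit). H3K27Ac at the start was deposited in both WT lists, over the limit, with 7.92 and 6.55 untreated and 9.14 and 6.37 treated. A further RAD21 peak at the limit lay 10.8 to 12.1 kb upstream in treated WT cells (17.3 and 16.9), where untreated KO cells had one over the limit (11.2 and 4.17).

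The promoters of FN1, ZEB1 and ZEB2 are shown as 3 examples. At its start FN1 had RAD21 and PDS5A at the limit in treated WT cells alone. ZEB1 had H3K27Ac at the limit in 3 lists, RAD21 in 4 and PDS5A in 2. ZEB2 had no peak within 1 kb. The sequences run 5′ to 3′ from 250 bases before to 50 bases after the RefSeq start, on GRCh38.p14. That is another build than the GRCh37 of the peaks, so they show the promoter and not the bases under a peak. Capitals mark matches to 4 motifs searched on both strands: the cyclic AMP response element (CRE, TGACGTCA), the GC box (GGGCGG), the E-box bound by ZEB and SNAI proteins (CAGGTG) and the TATA box (TATAAA). The table lists 7 starts for ZEB1, of which the 5′-most is shown, on the plus strand; FN1 and ZEB2 are read on the minus strand, chr2:215436019-215436318 and chr2:144520070-144520369.
FN1: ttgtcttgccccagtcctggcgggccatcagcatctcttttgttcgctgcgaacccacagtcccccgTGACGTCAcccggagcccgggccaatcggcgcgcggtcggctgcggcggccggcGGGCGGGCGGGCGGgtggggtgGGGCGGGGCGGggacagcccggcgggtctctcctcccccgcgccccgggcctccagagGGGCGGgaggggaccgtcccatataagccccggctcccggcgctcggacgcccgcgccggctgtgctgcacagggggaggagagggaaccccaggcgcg
ZEB1: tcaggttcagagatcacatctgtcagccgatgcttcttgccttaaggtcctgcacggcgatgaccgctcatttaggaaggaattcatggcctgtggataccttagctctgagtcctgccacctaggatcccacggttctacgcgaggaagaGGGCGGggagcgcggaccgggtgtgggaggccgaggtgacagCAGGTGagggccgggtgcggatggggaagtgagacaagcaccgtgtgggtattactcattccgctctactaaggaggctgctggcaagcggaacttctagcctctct
ZEB2: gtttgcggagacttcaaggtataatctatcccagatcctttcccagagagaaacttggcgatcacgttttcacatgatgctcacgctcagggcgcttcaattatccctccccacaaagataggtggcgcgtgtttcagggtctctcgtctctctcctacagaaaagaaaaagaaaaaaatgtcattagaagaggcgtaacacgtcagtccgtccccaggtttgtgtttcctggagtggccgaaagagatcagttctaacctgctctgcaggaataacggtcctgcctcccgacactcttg
FN1 held 1 CRE and 6 GC boxes, some of them overlapping. It had 76.7% G and C, at percentile 93.1 of the 35116 RefSeq promoters of the same length, and 38 CG pairs against a median of 14. ZEB1 held 1 GC box and 1 E-box at 58.3% G and C, near the median of 58.7%. ZEB2 held none of the 4 motifs at 49% G and C. Of the promoters not shown, VIM had 48% (percentile 26.6) and CDH2 67% (percentile 72.2), each with 1 GC box. VIM nevertheless had RAD21 and PDS5A near its start in 6 of 6 lists, and CDH2 had no PDS5A peak. Whether promoter sequence goes with these peaks was not tested. Over all promoters, 1.85% held the CRE, 45.0% the GC box, 20.6% the E-box and 11.5% the TATA box. Matched by symbol, 5 of the 6 genes had a promoter in the table, all but SNAI2.

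**Figure D2:**
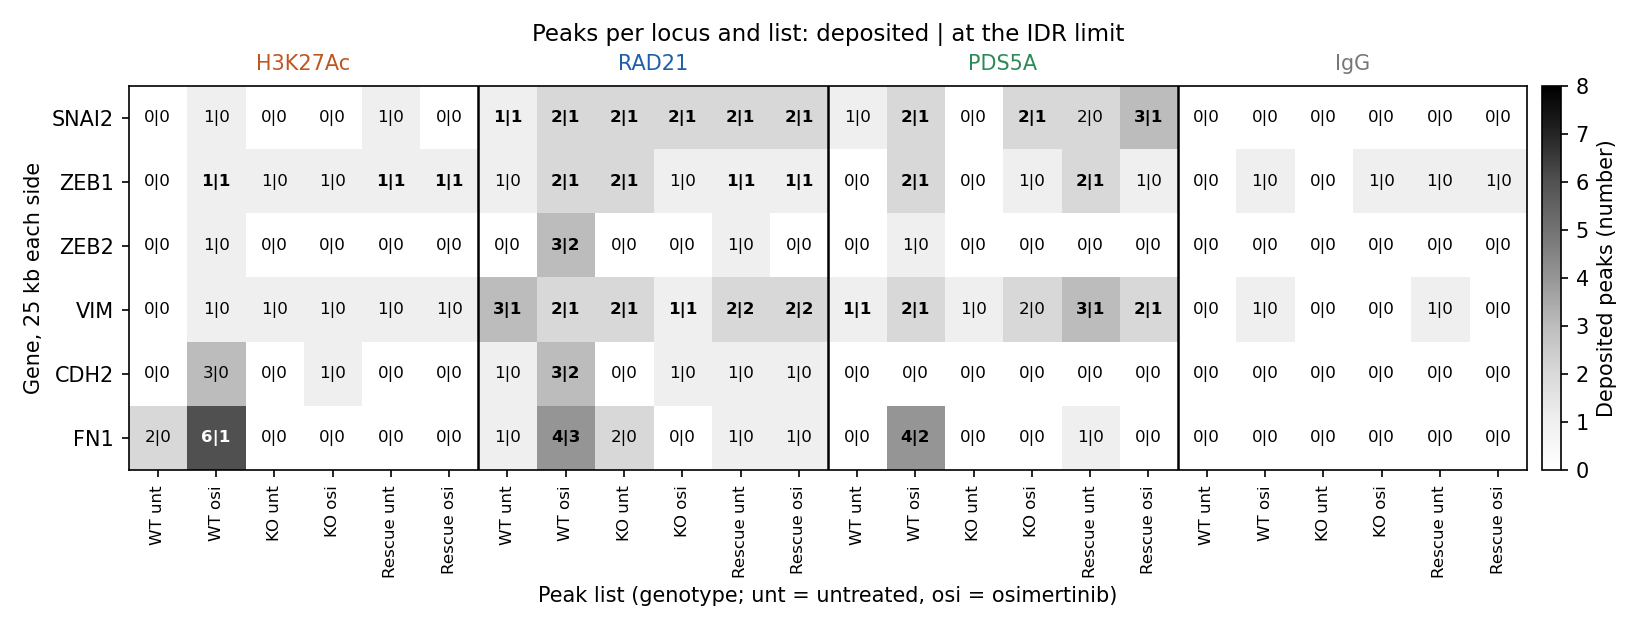
Each cell gives the deposited peaks and, after the bar, the peaks at the IDR limit for 1 gene (rows, gene with 25 kb on each side) in 1 list (columns), and the shade gives the deposited number. FN1 reaches 6 H3K27Ac, 4 RAD21 and 4 PDS5A peaks in treated WT cells and 0 of each in treated KO cells.

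By antibody, osimertinib and METTL7A genotype were compared at these loci by counts set against the length of each list. RAD21 gave 51 deposited peaks, 25 at the limit. In WT cells 2 of 7 peaks were at the limit untreated (23.8% of the whole list were) and 10 of 16 treated (42.9%). In KO cells the counts were 3 of 8 untreated (28.2%) and 2 of 5 treated (24.7%), and in Rescue cells 4 of 8 untreated (37.2%) and 4 of 7 treated (42.2%). The 10 of 16 in treated WT cells is a share of 62.5% with a 95% Wilson interval of 38.6 to 81.5%, which holds the share of the whole list. Such intervals cover counting error only.

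PDS5A gave 33 deposited peaks, 11 at the limit. In WT cells 1 of 2 was at the limit untreated (12.2% of the whole list) and 5 of 11 treated (36.1%). In KO cells the counts were 0 of 1 untreated (9.87%) and 1 of 5 treated (22.3%), and in Rescue cells 2 of 8 untreated (41.8%) and 2 of 6 treated (42.2%).

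H3K27Ac gave 25 deposited peaks, 4 at the limit. In WT cells 0 of 2 were at the limit untreated (22.6% of the whole list) and 2 of 13 treated (23.1%). In KO cells the counts were 0 of 2 untreated (23.2%) and 0 of 3 treated (21.7%), and in Rescue cells 1 of 3 untreated (36.6%) and 1 of 2 treated (29.3%). IgG gave 6 deposited peaks and 0 at the limit. The whole IgG lists had 0.946% at the limit in untreated WT, 4.11% in treated WT, 4.19% in untreated KO, 1.22% in treated KO, 1.05% in untreated Rescue and 3.68% in treated Rescue cells.

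Per 1000 peaks of their list, the RAD21 peaks of the 6 loci at the limit came to 0.542 in untreated and 0.600 in treated WT cells, to 0.559 and 0.457 in KO cells, and to 0.435 and 0.360 in Rescue cells. The step from 2 to 10 RAD21 peaks in WT cells thus went with a list that grew from 3691 to 16655 peaks at the limit. For PDS5A the values were 0.569 and 0.398 in WT, 0 and 0.245 in KO and 0.142 and 0.174 in Rescue cells. The H3K27Ac values were 0 and 0.196 in WT, 0 and 0 in KO and 0.0692 and 0.0755 in Rescue cells.

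The mean difference per 1000 peaks, osimertinib minus untreated, was −0.0393 ± 0.0857 for RAD21, 0.0351 ± 0.208 for PDS5A and 0.0674 ± 0.111 for H3K27Ac (SD, n = 3 genotypes). Values were higher under osimertinib in 1 of 3 genotypes for RAD21 and in 2 of 3 for PDS5A and H3K27Ac. For H3K27Ac, KO cells held 0 peaks at the limit in both lists. Rescue cells held 1 in each, of 14446 peaks untreated and 13245 treated, so that rise came from list length. A two-sided, exact permutation of signs over the 3 genotypes left p at 0.5 for RAD21, 0.75 for PDS5A and 0.5 for H3K27Ac. Benjamini-Hochberg adjusted values were 0.75 for each, in a design whose p cannot go below 0.25. For H3K27Ac the KO difference was 0, so its p could not go below the 0.5 obtained. Rescue cells derive from KO cells, so the 3 genotypes are not independent units. The SD also holds any difference between genotypes in their response to osimertinib. With peaks on IgG peaks left out the RAD21 difference turned to 0.107, higher in 2 of 3 genotypes. In that setting PDS5A came to 0.335 ± 0.189 (SD), higher in 3 of 3 genotypes, with an exact permutation p of 0.25, the smallest this design allows, and an adjusted p of 0.75. The PDS5A value rested on few peaks. Untreated lists held 0 in each genotype, and treated lists held 3 of 8326 in WT, 1 of 1963 in KO and 1 of 7421 in Rescue cells.

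Between genotypes, KO minus WT under osimertinib was −0.143 per 1000 peaks for RAD21 (95% Newcombe interval −0.747 to 1.10), −0.153 for PDS5A (−0.723 to 1.01) and −0.196 for H3K27Ac (−0.714 to 0.277). Rescue minus KO under osimertinib was −0.0972 for RAD21 (−1.33 to 0.559), −0.0701 for PDS5A (−1.22 to 0.433) and 0.0755 for H3K27Ac (−0.380 to 0.428). Untreated, the intervals of both contrasts also held 0 for each antibody. With so few peaks at the limit, differences of the size of the shares themselves lie inside these intervals. No direction is read from these contrasts, since other settings turned their sign. KO minus WT under osimertinib became 0.0372 for RAD21 within gene bodies alone and 0.271 with lists shortened to equal length, 0.149 for PDS5A without peaks on IgG peaks, and 0.0588 for H3K27Ac with 50 kb windows. Rescue minus KO under osimertinib became 0.123 for RAD21 and 0.152 for PDS5A at an IDR of 0.01, and −0.126 for H3K27Ac with 50 kb windows.

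Counted over every deposited peak, H3K27Ac in treated WT cells came to 13 of 44124 peaks, 0.295 per 1000 (95% Wilson interval 0.172 to 0.504), against 3 of 39192 (0.0765, interval 0.0260 to 0.225) in treated KO and 2 of 45234 (0.0442, interval 0.0121 to 0.161) in treated Rescue cells. KO minus WT was −0.218 (−0.434 to −0.0256), the 1 interval without 0 among the 120 computed for 12 genotype contrasts, and with 50 kb windows at the limit the sign was the opposite. Of the 13 peaks, 6 were at FN1 and 3 at CDH2, and VIM, ZEB1, ZEB2 and SNAI2 had 1 each. The counting interval treats peaks as independent, which neighbouring peaks of 1 gene are not, and 2 of the 13 were at the limit.

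**Figure D3:**
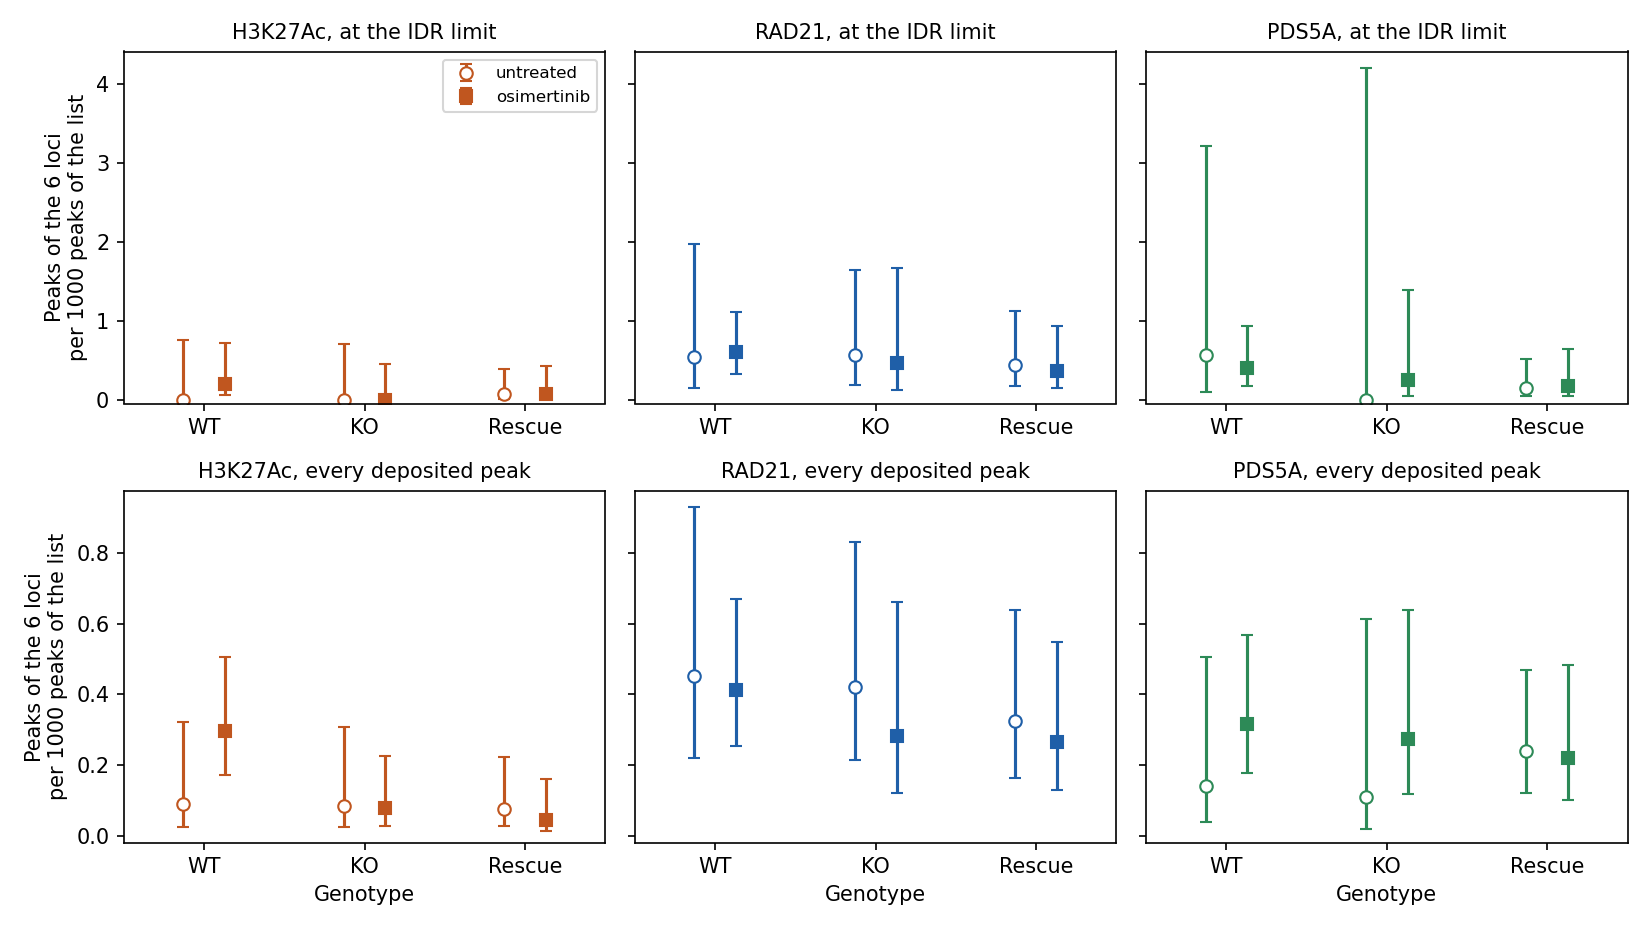
Peaks of the 6 loci per 1000 peaks of the list (y axis) by genotype (x axis), open circles untreated and filled squares osimertinib, with 95% Wilson intervals that cover counting error only; upper panels count peaks at the IDR limit and lower panels every deposited peak. The intervals of the upper panels overlap, and in the lower H3K27Ac panel treated WT cells (0.295) lie above treated Rescue cells (0.0442).

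Each treated WT peak at the limit was then looked up in the other lists of its antibody. For RAD21, 5 of 10 had no deposited peak in untreated WT cells (41.8% of all treated WT peaks at the limit), 7 of 10 none in treated KO (34.3%), 5 of 10 none in treated Rescue (19.6%), and 3 of 10 none in any of the other 5 lists (11.2%). The 7 missing in treated KO cells were the 3 at FN1, the 2 at ZEB2, the upstream CDH2 peak and the downstream VIM peak. Their 70% has a Wilson interval of 39.7 to 89.2%, above the 34.3% of the list, but the 7 peaks lie at 4 genes and are not independent. The 3 in no other list were at ZEB2, CDH2 and FN1.

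For PDS5A, 3 of 5 had no deposited peak in untreated WT cells (36.3%), 2 of 5 none in treated KO (26.9%), 2 of 5 none in treated Rescue (11.7%) and 2 of 5 none in any other list (4.96%). Those last 2 were both at FN1. For H3K27Ac, 2 of 2 had none in untreated WT cells (25.2%), 1 of 2 none in treated KO (15.2%), 1 of 2 none in treated Rescue (15.6%) and 1 of 2 none in any other list (9.35%), the last again at FN1. Counting every deposited treated WT peak, 6 of 13 H3K27Ac (28.6%), 4 of 11 PDS5A (22.3%) and 7 of 16 RAD21 peaks (32%) had none in the other 5 lists; this count was added after values were seen.

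RAD21 and PDS5A peaks coincided at part of these sites. Of the 10 RAD21 peaks at the limit in treated WT cells, 4 lay on a PDS5A peak at the limit (58.7% of the whole list did), at SNAI2, ZEB1 and FN1. That share of 40% has a Wilson interval of 16.8 to 68.7%. On both a PDS5A and an H3K27Ac peak lay 2 of 10 (18.5%), the ZEB1 start and the FN1 site 25.4 to 27 kb into the gene.

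**Figure D4:**
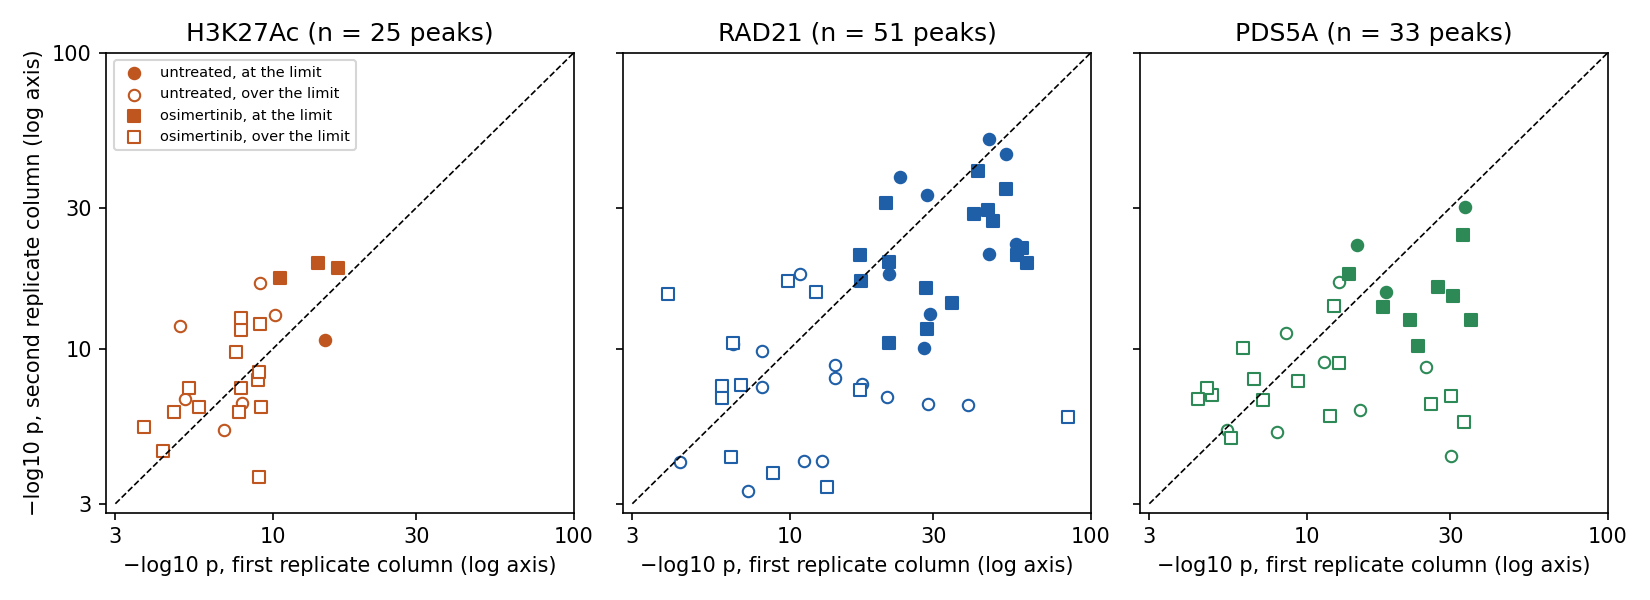
The −log10 p of each member peak in the first (x) and second (y) replicate column, both on log axes, for H3K27Ac, RAD21 and PDS5A; circles are untreated and squares osimertinib, filled points are at the IDR limit, and the dashed line marks equal values. Filled points sit at the upper right, and 36 of 51 RAD21 and 23 of 33 PDS5A points lie below the line, a side that varied by list.

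Replicates of these peaks differed by a median factor of 1.51 in −log10 p, and 34 of the 109 peaks differed by more than 2-fold. The first replicate column was the higher in 36 of 51 RAD21 and 23 of 33 PDS5A peaks, against 9 of 25 for H3K27Ac. Which replicate is first is unnamed in each list, so these pooled counts say nothing of an antibody. The direction varied by list. For RAD21 it was 7 of 7 in untreated WT and 0 of 5 in treated KO cells. For PDS5A it was 8 of 8 in untreated Rescue and 0 of 5 in treated KO cells. For RAD21 the median ratio of first to second column was 2.49 over 7 member peaks and 2.83 over the whole list in untreated WT cells, and 0.976 over 8 member peaks and 1.3 over the list in untreated KO cells. Peaks at the limit had lower values of 10.1 to 46.0 and a median width of 1309 bp. Peaks over the limit had lower values of 3.31 to 12.9 and a median width of 654 bp.

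An IgG peak of some condition underlay 32 of the 109 peaks, all at VIM and ZEB1 (25.2% of all peaks of the 18 lists lay on one). At the limit this was 18 of 40 (39.9% of all). Without them RAD21 kept 16 of 25 peaks at the limit, PDS5A 5 of 11 and H3K27Ac 1 of 4, the FN1 peak. The 39 peaks at FN1, CDH2 and ZEB2 and those at SNAI2 were free of IgG peaks.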

How the data were processed

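CUT&RUN was run on PC9 cells of 3 genotypes and 2 treatments, with 5 antibodies and 2 samples per group (60 samples in 30 groups). The 12 H2A samples were not analysed here. The submitters' processing notes name the build GRCh37 and MACS2 2.2.7.1, Bowtie2 2.4.2, deepTools 3.5.1, bedtools 2.30, SAMtools 1.16, FastQC and Trimmomatic. For settings and the IDR version, nothing was given in the sources used here. The 24 deposited lists each join both replicates and give, as the authors' values, the −log10 p of each replicate (3 or more) and the −log10 of the global IDR. Which replicate is which column is not named. Depth per sample is unknown.

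Peaks on chromosomes 1 to 22 and X were read. A peak was a member when it overlapped a window by 1 bp, and was at the limit at a −log10 IDR of 1.301. The value used for ranks was the lower replicate −log10 p. All 6 members were named, with the peak at each start and the sites holding each gene's 3 highest values per antibody. Shares carry Wilson and differences Newcombe 95% intervals. Osimertinib was tested over genotypes by an exact sign-flip permutation test. Alternatives changed the IDR limit, window, overlap, IgG peaks, boundaries, list length, replicate value, start window and merging. Other transition genes and cell markers were planned but not analysed here, for want of a GRCh37 annotation. The members and lists were chosen with earlier results of these data known. Computation used scipy 1.17.1, statsmodels 0.14.6, pandas 2.3.3, numpy 2.4.6 and matplotlib 3.10.9 under Python 3.11.15, and the window code was tested on simulated data.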

Additional observations from a re-analysis of the deposited data

Results flagged for a closer look

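The number of RAD21 peaks at the limit over the 6 loci differed in direction between genotypes. Osimertinib minus untreated was 8 in WT cells (2 to 10 peaks), −1 in KO cells (3 to 2) and 0 in Rescue cells (4 to 4). With 1 list per condition this difference between genotypes was not tested. The treated WT list was also the longest RAD21 list, and per 1000 of its peaks the WT value went from 0.542 to 0.600. With lists shortened to 3691 peaks each, WT cells held 2 untreated and 1 treated. KO cells then held 3 and 2, and Rescue cells 2 and 2.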

How the results depend on the processing

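Across 9 kinds of alternative, 168 recomputed values were counted as unchanged, 16 moved and 3 reversed. Of the 3 reversed, a RAD21 difference changed sign, and an H3K27Ac and a PDS5A difference came to 0. Values counted as unchanged could still differ: RAD21 peaks at the limit went from 25 to 34 with 50 kb windows. For the 12 genotype contrasts unchanged means only that the value lay within the reported counting interval: of their 108 values 15, from 9 contrasts, had the opposite sign, and KO minus WT under osimertinib ran from −0.308 to 0.271 for RAD21, from −0.312 to 0.149 for PDS5A and from −0.218 to 0.0588 for H3K27Ac. At a global IDR of 0.01 the H3K27Ac difference, osimertinib minus untreated, came to 0 per 1000 peaks, and H3K27Ac kept 0 peaks (0% of those deposited), PDS5A 2 (6.06%) and RAD21 33.3% of its deposited peaks; sites with a peak at the limit went from 11 to 7. With IgG-overlapping peaks left out the RAD21 difference turned to 0.107, the PDS5A difference rose from 0.0351 to 0.335 (3 of 3 genotypes, exact permutation p 0.25, adjusted 0.75), and counts at the limit were 16 for RAD21, 5 for PDS5A and 1 for H3K27Ac. That PDS5A difference rested on 3 treated peaks in WT, 1 in KO and 1 in Rescue cells, against 0 untreated. With lists shortened to equal length the PDS5A difference came to 0 and the RAD21 difference to −0.181, higher under osimertinib in 0 of 3 genotypes. The cause of these changes was not tested. Counting every deposited peak gave 25 H3K27Ac, 51 RAD21, 33 PDS5A and 6 IgG peaks by construction. Windows of 50 kb gave 15 H3K27Ac peaks at the limit. Within 5 kb of a start, H3K27Ac was deposited in 14 gene and list pairs against 9 within 1 kb; within 250 bp IgG was in 2 against 4. No paired analysis was possible because each deposited list joins both replicates, so replicate numbers cannot enter a fit. The osimertinib comparison pairs lists by genotype alone. Leaving out a replicate was not possible for the same reason. With at most 16 member peaks in a list, counts limit every comparison, and depth is unknown.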
